A study of Mus musculus with 6 samples.

Results

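Annexins are proteins that bind acidic phospholipids of the cell membrane, phosphatidylserine among them, when calcium rises. They share a conserved calcium binding core and differ in the N-terminal tail, which binds partner proteins such as the S100 family. Epithelial and tumor cells use them in membrane trafficking, in the resealing of membrane wounds, in the control of phospholipase A2 and in surface proteolysis. The genes described here were the rows of the normalized count table whose symbol is Anxa1, Anxa2, Anxa3, Anxa4, Anxa5, Anxa6, Anxa7, Anxa8, Anxa9 or Anxa11. All 10 of the 10 were found among the 24129 rows, and all 10 had enough reads to be compared. The other annexin genes in the table, Anxa10 and Anxa13, were hardly read, with 0 reads of Anxa10 in any library and 1 read of Anxa13 in 1 T1 library.

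RNA was compared between 3 T1 and 3 T2 replicates. Both populations descended from the mouse mammary carcinoma line 4T1 tagged with GFP (4T1GFP), which had been injected into BALB/c mice, and both were recovered from a primary mammary tumor, sorted and cultured in DMEM/F-12 with serum. T1 cells (4T1A in the labels) had low GFP, an adherent epithelial morphology, fast growth and an aggressive phenotype in mice. T2 cells (4T1NA) had high GFP, were round and loosely adherent, grew slowly and were less aggressive. Each population is 1 culture line sorted from tumor cells that had outgrown a fibroblast culture, and T2 cells were passaged without trypsin, so the way of growing and the population cannot be told apart. The labels call the replicates independent without naming separate cultures, so the p-values measure the spread between these samples. Every library held between 18133227 and 20839686 reads on genes. T1 replicate 3 stood farthest from its group, at 24.0 and 25.8 times the sampling noise from the other T1 libraries, which were 8.17 times the noise apart, while T2 libraries were 11.03 to 20.7 times the noise apart (chi-square per degree of freedom). Without T1 replicate 3, 7 annexins were different and 1 was past both filters, as with it. Of the markers set down for the populations, Epcam and Cdh1 were higher in T1 cells (log2 fold changes of 6.46 and 4.98) and Vim was lower (-2.15). The study describes T1 cells as epithelial and T2 cells as mesenchymal. Its qRT-PCR found epithelial and mesenchymal markers different between them. Each of its epithelial-mesenchymal scores, computed from its global gene expression data, placed T2 cells as more mesenchymal. At the protein level it reports high E-cadherin in T1 cells, without a significant difference in vimentin. Of the markers of other cells, the 4 leukocyte genes summed to 0 to 6.51 normalized counts in T1 and 7.17 to 14.8 in T2 libraries with Tyrobp at 0, and the 4 neutrophil genes summed to 0 in T1 and 0.979 to 3.71 in T2 libraries with S100a9 and Csf3r at 0. The 5 fibroblast genes summed to 20.1 to 40.0 in T1 and 0 to 0.979 in T2 libraries with Col3a1 and Lum at 0, and the 4 endothelial genes to 0 to 5.29 and 0 to 4.64 with Kdr at 0.

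The question was which annexins differed between the epithelial, aggressive T1 cells and the round T2 cells. Normalized counts, reads divided by 1 size factor per library, were compared on the log2(normalized count + 1) scale with limma over 11514 genes with a mean of at least 10. Genes with an adjusted p-value below 0.01 are called different. Those whose log2 fold change was also beyond 2 in either direction are called past both filters, which are the thresholds of the study. Of the 10 annexins, 3 were higher in T1 cells (Anxa1, Anxa3 and Anxa8), 4 were lower (Anxa2, Anxa5, Anxa9 and Anxa11) and 3 did not pass (Anxa4, Anxa6 and Anxa7). Over all genes tested, 25.1% were higher, 24.4% lower and 49.5% different in either direction. The groups did not overlap for 7 of the 10 annexins, and for 68.1% of all genes tested. One direction did not dominate, with a median log2 fold change of 0.04 over the annexins and -0.0055 over all genes. The median size of the log2 fold change was 0.82 for the annexins and 0.45 for all genes tested. Past both filters there was 1 annexin, Anxa8, higher in T1 cells, where 8.37% of all genes were past both filters and 4.17% were past them as higher and 4.20% as lower in T1 cells. Anxa8 passed the mean of at least 10 only through its T1 reads. As the annexins were chosen as a family with earlier results of these data known, these counts describe them and show nothing particular to them.

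**Figure D1:**
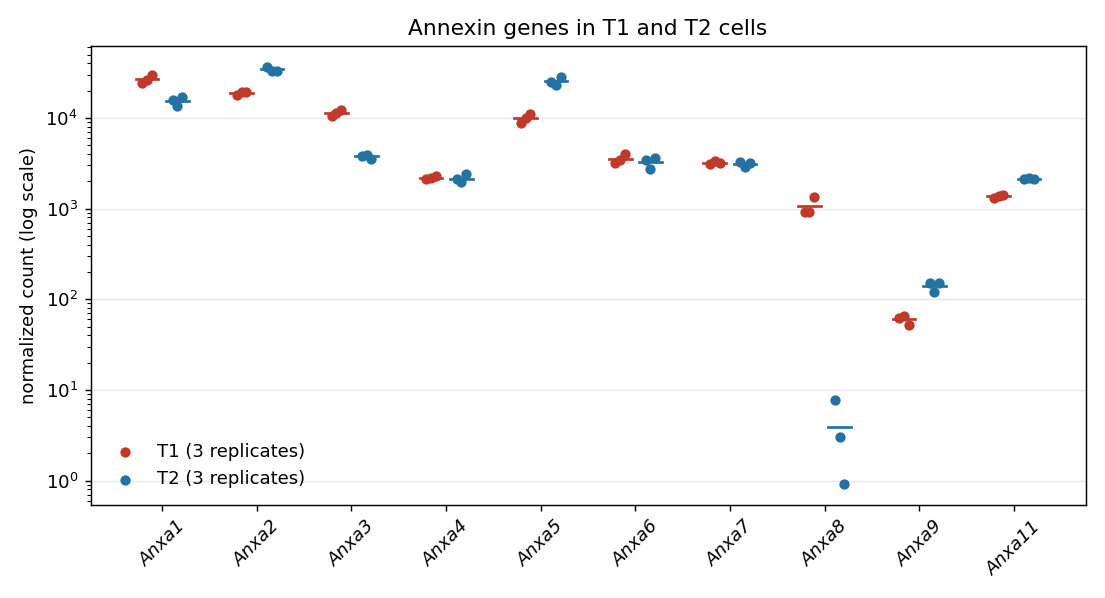
Normalized counts (log axis) of the 10 annexin genes, with 1 point for each of 3 T1 and 3 T2 replicates and a line at each mean. The T1 and T2 points separate for 7 genes and overlap for Anxa4, Anxa6 and Anxa7, and Anxa8 lies between 929 and 1341 in T1 and between 0.928 and 7.83 in T2 cells.

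Anxa8 changed most. It encodes annexin A8, which is found in stratified and ductal epithelia, and its gene is on chromosome 14, plus strand (mm10, 34085981 to 34100571). Its reads numbered 878, 1000 and 1374 in the T1 and 8, 3 and 1 in the T2 libraries. As normalized counts these were 929, 930.0 and 1341 in T1 cells and 7.83, 3.07 and 0.928 in T2 cells. Every T1 library was more than 100 times every T2 library. The log2 fold change was 8.0 (limma, Benjamini-Hochberg adjusted p = 2.28e-07, with a standard error of 0.45), the 20th largest among all genes higher in T1 cells. On summed reads the ratio of T1 to T2 was 273.7, with an exact counting interval at 95% from 156.5 to 530.3. This size rests on the 12 reads of the T2 libraries, and it was 548.5 without T2 replicate 1. As Anxa8 passed the mean of at least 10 only through its T1 reads, its test and rank are given as description. A pseudocount of 5 in place of 1 gave a log2 fold change of 6.96. Anxa8 is also on a list that the study picked from the same libraries for being higher in T1 cells, so its direction here is not independent evidence. The nearest protein-coding genes outside its span, Antxrl and Npy4r, had 1 and 0 reads over the 6 libraries, and A630023A22Rik, which overlaps it on the other strand without sharing exon bases, had 3 reads, all in T1 libraries.

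The bases just before the start of Anxa8 are shown because it is the annexin that was near 0 in T2 cells, and those of Anxa2 and Anxa5 because these were the most abundant annexins of T2 cells per length. They come from the RefSeq promoter table (GRCm38.p6, the assembly behind mm10), which held 8 of the 10 annexins (none for Anxa3 and Anxa6), run 5′ to 3′ on the gene's strand, and stop where the annotated gene span begins.
Anxa8, chr14:34085729-34085978, plus strand: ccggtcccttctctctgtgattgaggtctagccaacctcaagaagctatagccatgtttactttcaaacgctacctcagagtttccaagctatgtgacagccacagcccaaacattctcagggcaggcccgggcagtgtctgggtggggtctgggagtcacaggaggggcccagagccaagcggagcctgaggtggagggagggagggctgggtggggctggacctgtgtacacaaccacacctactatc
Anxa2, chr9:69453433-69453619, plus strand: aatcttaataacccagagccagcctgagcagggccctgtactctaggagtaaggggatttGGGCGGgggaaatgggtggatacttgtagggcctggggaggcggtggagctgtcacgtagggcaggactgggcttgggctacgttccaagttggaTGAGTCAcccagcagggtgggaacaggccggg
Anxa5, chr3:36475895-36476137, minus strand: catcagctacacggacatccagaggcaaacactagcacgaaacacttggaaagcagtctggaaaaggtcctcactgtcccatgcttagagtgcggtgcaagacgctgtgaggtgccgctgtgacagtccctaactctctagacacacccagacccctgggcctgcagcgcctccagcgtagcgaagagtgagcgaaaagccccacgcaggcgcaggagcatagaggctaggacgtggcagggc
Capitals mark matches to 4 motifs that were searched on both strands in the 250 bases before each RefSeq start: TGANTCA (AP-1), CAGGTG (the E-box of ZEB and SNAI factors), TGACGTCA (CREB) and GGGCGG (the GC box of SP1). The stretches of Anxa8 and Anxa5 held none of them. That of Anxa2 held 1 AP-1 match, beginning 95 bases before the RefSeq start, and 3 GC boxes, 190, 48 and 24 bases before it, of which the last 2 lie inside the annotated gene span and are not shown. Over all 32851 promoters of the table, 6.75% held the AP-1 letters, 17.2% the E-box, 1.55% the CREB site and 32.7% the GC box. The GC content was 58.0% for Anxa8, 62.4% for Anxa2 and 58.8% for Anxa5, against a median of 52.4% over all promoters. A match or its absence describes these letters only.

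Anxa1 and Anxa3 were the other annexins higher in T1 cells. Anxa1 (chromosome 19, 20373428 to 20390944, minus strand) encodes annexin A1, a glucocorticoid regulated inhibitor of phospholipase A2 and a ligand of formyl peptide receptors. Its normalized counts were 24016, 25975 and 29952 in T1 cells and 15970.4, 13543 and 16894 in T2 cells. The lowest T1 library was above the highest T2 library, and T1 replicate 3 was the highest of all. The log2 fold change was 0.78 (limma, adjusted p = 0.000103, with a standard error of 0.11). Anxa3 (chromosome 5, 96793339 to 96845966, plus strand), whose protein is also abundant in neutrophils, had 10467, 11210 and 12291 normalized counts in T1 cells and 3822, 3940 and 3522 in T2 cells. The groups were far apart compared with their spread, 11323 ± 917 and 3761 ± 215 (SD, n = 3 each), with a log2 fold change of 1.59 (limma, adjusted p = 1.19e-07, with a standard error of 0.08). Anxa3 thus differed by a factor of 3.02 on summed reads and stayed below the fold filter of the study. In bulk RNA, fewer cells that express a gene and less of its RNA per cell cannot be told apart.

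Anxa5 and Anxa2 were the abundant annexins lower in T1 cells. Anxa5 (chromosome 3, 36448923 to 36475894, minus strand) encodes annexin A5, the protein used to detect phosphatidylserine on the outside of dying cells. Its normalized counts were 8708, 10053 and 11135 in T1 cells and 25225, 23156 and 28092 in T2 cells. Each T2 library held more than 2 times the Anxa5 of each T1 library, and the log2 fold change was -1.36 (limma, adjusted p = 1.91e-06, with a standard error of 0.10). Anxa2 (chromosome 9, 69453620 to 69491795, plus strand) encodes annexin A2, which forms a complex with S100a10 and binds plasminogen and tissue plasminogen activator at the cell surface. It had 18087, 19357 and 19368 normalized counts in T1 cells and 36676, 33059 and 33328 in T2 cells. The spread within each group was small, 18937 ± 736 and 34354 ± 2016 (SD, n = 3 each), and the log2 fold change was -0.86 (limma, adjusted p = 4.77e-06, with a standard error of 0.08).

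Anxa11 and Anxa9 were lower in T1 cells at lower levels. Anxa11 (chromosome 14, 25842156 to 25886804, plus strand) encodes annexin A11, whose long tail binds S100a6 and Pdcd6 and which links RNA granules to lysosomes. It had 1322, 1391 and 1429.8 normalized counts in T1 cells and 2121, 2169.6 and 2131 in T2 cells, a log2 fold change of -0.63 (limma, adjusted p = 4.0e-05, with a standard error of 0.07). The difference was many times the spread within T1 (SD 54.9) and T2 (SD 25.6) cells. Parts of its transcript, 657 and 602 bases long, are identical to the annotated pseudogenes Gm2260 and Gm2274, so reads of these parts may have been left out or split in both groups. It also shares 113 exon bases with Anxa11os on the other strand, as Anxa2 does 98 with Gm16144 and Anxa4 75 with Gm44036. On the same strand, Anxa3 shares 112 exon bases with Gm42603 and Anxa9 94 with 6330562C20Rik. The reads of such pairs were not separated here. Anxa9 (chromosome 3, 95296096 to 95307176, minus strand) encodes an annexin whose core lacks the usual calcium binding sites. Its normalized counts were 62.4, 66.0 and 51.7 in T1 cells and 151, 122 and 151 in T2 cells, with a log2 fold change of -1.22 (limma, adjusted p = 0.000254, with a standard error of 0.19). Anxa9 shares 71 exon bases with Mindy1 (Fam63a in the table) on the other strand. Mindy1 was itself lower in T1 cells, with 461 ± 4.74 normalized counts against 1290 ± 31.6 in T2 cells (SD, n = 3 each), and its log2 fold change was -1.48 (adjusted p = 2.75e-07, limma). The strand setting of the counting is not given in the sources used here, and the part of Mindy1 reads in the Anxa9 counts was not tested.

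**Figure D2:**
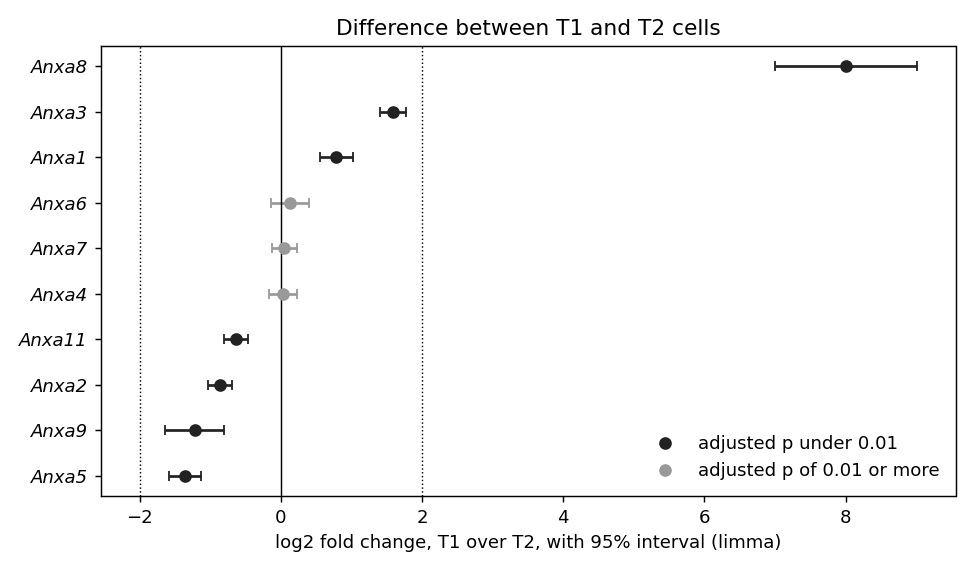
Log2 fold change of T1 over T2 cells for each annexin (limma), with bars for the 95% interval and dotted lines at the fold filter of 2 in either direction. Anxa8 at 8.0 is the only annexin beyond the dotted lines, 3 annexins lie right and 4 left of 0 with an adjusted p under 0.01 (black), and Anxa4, Anxa6 and Anxa7 (grey) have intervals that include 0.

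Anxa4, Anxa6 and Anxa7 did not pass the test, and their intervals limit how far they could differ. Anxa4 (chromosome 6, 86736840 to 86793584, minus strand), an annexin of secretory epithelia, had 2107, 2173 and 2293 normalized counts in T1 cells and 2104, 1945 and 2385 in T2 cells. Its log2 fold change was 0.03 with a 95% interval from -0.17 to 0.24 (adjusted p = 0.753, limma). Anxa6 (chromosome 11, 54979108 to 55033445, minus strand), whose protein carries a duplicated core and takes part in endocytosis and cholesterol traffic, had 3205, 3429 and 4049 in T1 cells and 3445, 2710.2 and 3608 in T2 cells. Its log2 fold change was 0.13, from -0.14 to 0.40 (adjusted p = 0.358, limma). Anxa7 (chromosome 14, 20455260 to 20480133, minus strand), also called synexin and named for its role in the fusion of secretory granules, had 3136, 3346 and 3169 in T1 cells and 3290.0, 2882 and 3148 in T2 cells. Its log2 fold change was 0.05, from -0.12 to 0.22 (adjusted p = 0.578, limma). In all 3 genes the T1 and T2 values overlapped, and no interval reached a log2 fold change of 0.5 in either direction. Anxa7, Anxa8 and Anxa11 are all on chromosome 14, and 1 of them was not different, 1 was higher and 1 was lower in T1 cells.

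To compare the annexins with one another, normalized counts were divided by the length of all exons of the gene joined, in kb. On this scale the order in T1 cells was led by Anxa1 at 9154 ± 1039 per kb, followed by Anxa5 at 5608 ± 684, Anxa2 at 5076 ± 197 and Anxa3 at 3108 ± 252 (SD, n = 3 each). The values of Anxa5 and Anxa2 overlapped between T1 libraries, and so did those of Anxa8 at 567 ± 126 and Anxa7 at 537 ± 18.8 (SD, n = 3 each). In T2 cells the order was led by Anxa5 at 14345 ± 1395, followed by Anxa2 at 9208 ± 540 and Anxa1 at 5314 ± 595, and, after Anxa6, Anxa3 at 1032.5 ± 59.1 (SD, n = 3 each). Anxa6, at 1111 ± 163, overlapped with Anxa3. Anxa7, Anxa11 and Anxa4 formed a group in T2 cells whose neighbours overlapped, between 462 and 519 per kb. Anxa8 was last in T2 cells at 2.10 ± 1.88 per kb, and Anxa9 last in T1 cells at 29.0 ± 3.59 (SD, n = 3 each). Among 15129 genes with a read and an annotated length, Anxa1 ranked 46 in T1 and 99 in T2 cells, and Anxa5 ranked 88 in T1 and 31 in T2 cells. Anxa2 ranked 109 and 50, and Anxa3 208 and 867. The order depends on the length used. Divided by the longest transcript instead, Anxa1 stayed first in T1 cells at 15919 ± 1807 per kb, followed by Anxa2 at 8306 ± 323, Anxa3 at 7099 ± 575 and Anxa5 at 5757 ± 702 (SD, n = 3 each). In T2 cells Anxa2 then came first at 15068 ± 884 per kb and overlapped with Anxa5 at 14726 ± 1432, ahead of Anxa1 at 9241 ± 1034 (SD, n = 3 each). Without division by length Anxa1 also led in T1 and Anxa2 in T2 cells.

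Summed per kb, the 10 annexins reached 23786, 25906 and 28609 in T1 cells and 33328, 30035 and 34371 in T2 cells. With the joined exons as length, the T2 sums were 1.25 times the T1 sums on average and did not overlap with them (two-sided exact permutation, p = 0.1, which 3 against 3 cannot go below). With the longest transcript as length, the sums of T1 and T2 libraries overlapped. Without the length correction the annexin reads were 0.375% to 0.442% of the reads on genes in T1 and 0.436% to 0.495% in T2 libraries, which overlap (two-sided exact permutation, p = 0.2). Of the sum per kb, Anxa1 made up 35.03% ± 0.818 in T1 cells and 16.3% ± 0.716 in T2 cells, and Anxa5 21.4% ± 0.733 and 44.0% ± 1.78 (SD, n = 3 each). Anxa2 made up 19.5% ± 1.20 in T1 and 28.3% ± 2.03 in T2 cells, and Anxa3 11.9% ± 0.147 and 3.19% ± 0.395 (SD, n = 3 each). These 4 annexins together made up 87.7% to 88.2% of the sum in T1 and 91.7% to 92.0% in T2 libraries. The T1 and T2 shares did not overlap for any of the 10 annexins (two-sided exact permutation, p = 0.1 and adjusted p = 0.1 for each, the smallest possible). With the longest transcript as length the shares of Anxa7 overlapped (difference 0.324 percentage points, two-sided exact permutation p = 0.2), and those of the other 9 did not. The shares add up to 100%, so those of Anxa4, Anxa6 and Anxa7, each larger in T1 cells by 0.397, 1.25 and 0.476 percentage points, also move with the total. The size of these differences moved with the length, to 0.218 for Anxa4 and 0.570 for Anxa6 with the longest transcript.

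**Figure D3:**
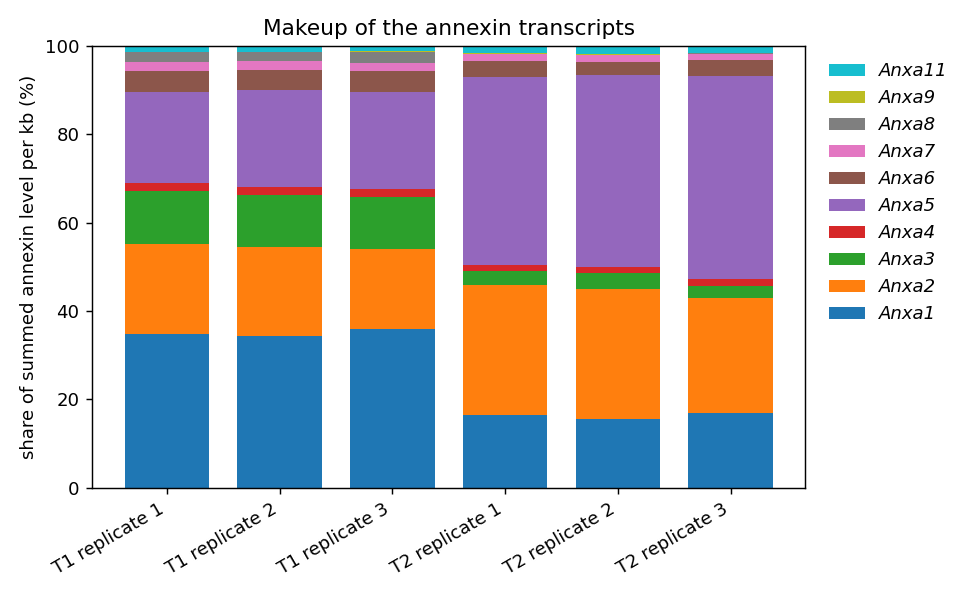
Share of each annexin in the summed annexin level per kb of exon (percent, stacked to 100), with 1 bar for each T1 and T2 replicate. Anxa1 (bottom) is 34.4% to 36.0% of the T1 bars and 15.5% to 16.9% of the T2 bars, and Anxa5 is 20.6% to 21.9% and 42.6% to 46.0%.

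Among the partners that annexin tails bind, the S100 genes were lower in T1 cells. Of 8 binding partners, 5 were lower, 1 was higher (Pef1, a partner of Pdcd6) and 2 did not pass (Sri and Pdcd6), where 24.4% of all genes were lower and 25.1% higher, with a median log2 fold change of -0.47 against -0.0055 over all genes. S100a10, the partner of annexin A2, had 10328, 12407 and 9527 normalized counts in T1 cells and 28462, 22436 and 26341 in T2 cells, a log2 fold change of -1.26 (adjusted p = 6.34e-06, limma). It was lower in T1 cells as was Anxa2 itself. S100a11, the partner of annexin A1, had 6593, 7156 and 6349 in T1 cells and 10915, 9097 and 9147 in T2 cells, a log2 fold change of -0.53 (adjusted p = 0.000438, limma). Its direction was thus opposite to that of Anxa1. S100a6, which binds annexin A11 among others, had a log2 fold change of -1.44. S100a4, a calcium binding protein linked to cell motility and also used here as a mesenchymal marker, was the only partner past both filters at -3.08. The scaffold protein gene Ahnak, at -0.40, had an adjusted p of 0.00925 in limma and lost its call in 9 of 15 alternatives, among them the replicate block (adjusted p = 0.0109), which left 4 partners lower.

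Of the receptors of annexin A1, Fpr1 and Fpr2 were not detected beyond a few reads, and Fpr3 could not be judged. Fpr1 had 0 reads in each T1 library and 2, 4 and 0 reads in the T2 libraries, and Fpr2 had 0 in each library, where a count of 0 allows up to 3 reads. Fpr3, Pla2g4b and Eno1 had no row of their own, the table listing each of them only joined with another gene. Of the phospholipases A2, Pla2g4a, the cytosolic enzyme that releases arachidonic acid and that annexin A1 can inhibit, had 3800 ± 776 normalized counts in T1 and 1478 ± 144 in T2 cells (SD, n = 3 each), and its log2 fold change was 1.35 (adjusted p = 1.13e-05, limma). Pla2g6, a calcium independent enzyme, was also higher in T1 cells, by 0.85 on the log2 scale (adjusted p = 7.91e-05, limma). Anxa1 and Pla2g4a were thus both higher in T1 cells.

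Of the 6 genes of plasminogen binding and activation, 4 were tested and 1 passed, Plaur, the urokinase receptor, with 3445 ± 139 normalized counts in T1 and 5675 ± 428 in T2 cells (SD, n = 3 each), and its log2 fold change was -0.72 (adjusted p = 2.29e-05, limma). Plat, the tissue plasminogen activator that annexin A2 binds, did not pass (log2 fold change of -0.05, adjusted p = 0.814, limma), nor did Plau and Plgrkt. Plg had 0 reads in each library. Over all genes tested, 49.5% were different and 24.4% were lower in T1 cells. A count of 1 among 4 did not set this list apart, and Plaur is given as a single gene.

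Annexins take part in the resealing of membrane wounds together with ferlins, calpains, caveolae and ESCRT proteins. Of 14 genes of this process, 12 were tested, 2 were higher and 4 lower in T1 cells and 6 did not pass. The share of different genes was near the 49.5% of all genes, and the median log2 fold change was 0.13 against -0.0055 over all genes. Myof, which encodes the ferlin myoferlin, had 10567 ± 1010 normalized counts in T1 and 23960 ± 570 in T2 cells (SD, n = 3 each), and its log2 fold change was -1.19 (adjusted p = 9.21e-07, limma). Dysf, the ferlin of muscle, had 0 reads in each library. Capn2, a calpain, had a log2 fold change of -1.01, and Chmp2a of the ESCRT machinery one of 0.61. Cav1, the caveolin of caveolae, was past both filters with 50.8, 6.51 and 37.1 normalized counts in T1 cells and 278, 231 and 243 in T2 cells, a log2 fold change of -3.35 (adjusted p = 0.000503, limma). T1 replicate 2 was the lowest of its group, and without it the log2 fold change was -2.50. Cavin1, listed as Ptrf, went the other way at 0.38.

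Phosphatidylserine, which annexin A5 binds on the outside of cells, is exposed by scramblases and turned inward by flippases. Of 12 listed genes of scramblase and flippase families, 10 were tested, 3 were higher and 5 lower in T1 cells and 2 did not pass, where 49.5% of all genes were different. Whether each of them acts on phosphatidylserine in these cells was not tested. Past both filters were 3 of the 10, where 8.37% of all genes were. Of these, Atp8b1 passed the mean of at least 10 only through its T1 reads and was not tested at a minimum mean of 50. As Xkr8 also sat at the fold filter, nothing is read from this count. One of the 5 lower genes, the scramblase gene Plscr3, lost its call in 7 of 15 alternatives. The scramblase gene Ano6 had 3984 ± 116 normalized counts in T1 and 6718 ± 161 in T2 cells (SD, n = 3 each), and its log2 fold change was -0.75 (adjusted p = 5.19e-06, limma). Xkr8, the scramblase activated in apoptosis, had 54.0, 40.0 and 30.3 in T1 cells and 188, 181 and 134 in T2 cells. Its log2 fold change of -2.01 sits at the fold filter. The value fell inside the filter with a pseudocount of 5 (-1.91) and with quantile normalization (-1.97). Without T1 replicate 3 (-1.81), T2 replicate 1 (-1.92) or T2 replicate 2 (-1.95) it was also inside. The flippase genes Atp8a1 and Atp8b1 were higher in T1 cells and past both filters. Atp8a1 had a log2 fold change of 2.28 (adjusted p = 4.33e-06, limma). Atp8b1 had 22, 35 and 36 reads in the T1 libraries and 0 in each T2 library, at least 10.4-fold higher in T1 cells against a floor of 3 reads per library. The flippase subunit gene Tmem30a and Atp11b were lower in T1 cells, and Atp11a was higher.

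**Figure D4:**
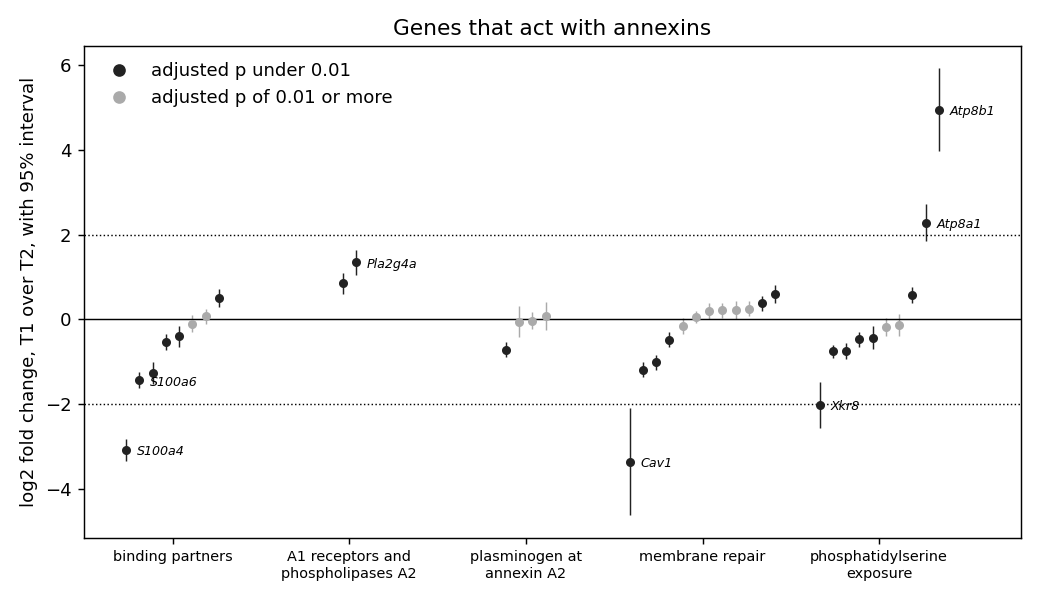
Log2 fold change of T1 over T2 cells (limma, bars for the 95% interval) of the tested genes in 5 lists of genes that act with annexins, with dotted lines at 2 in either direction. S100a4, Cav1 and Xkr8 are below and Atp8a1 and Atp8b1 above the dotted lines, and most binding partners lie below 0.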

How the data were processed

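RNA sequencing values of 3 T1 and 3 T2 samples, grouped by their labels, were used. Per the methods and labels, Trimmomatic was used for trimming, TopHat2 for alignment (mm10), HTSeq for counting and DESeq2 for normalization. Versions, annotation and strand setting are not given in the sources used here. The signal deposited by the authors is thus the reads of a gene scaled by the size factor of its sample. After multiplication by that factor 100% of the values were whole reads within 0.01, so the reads could be recovered. No column was left out (0 unused).

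T1 and T2 cells were compared with limma 3.58.1 and its variance trend (R 4.3.3), after taking log2(normalized count + 1), for genes with a mean of at least 10, and with Benjamini-Hochberg adjustment over all genes tested. On this scale, changes of weakly read genes come out too small. Alternatives were pseudocounts of 0.5 and 5, no filter, a minimum mean of 50, quantile normalization, no trend, edgeR 4.0.16 and DESeq2 1.42.0 on the recovered reads, a replicate block, and the omission of each replicate in turn. Shares of the annexins were compared by exact permutation, with other lengths as alternatives. Positions, exon lengths and overlaps came from GENCODE M21 (mm10), and near-identical transcripts from blastn 2.17.0. Intervals from reads and floors cover counting error only. Figures were drawn with matplotlib 3.10.9.

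The annexins, the lists of partner genes and the tests were chosen with earlier results of these data known. All 10 annexins were named, as were S100a10, S100a11, Fpr1, Fpr2 and up to 4 genes of each partner list with the largest log2 fold changes among those with an adjusted p-value under 0.01. Other list members are named to complete a count, and genes that overlap or neighbour an annexin were chosen after their values were seen. Cavin1 was matched by its synonym. Protein sequences were not used here.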

Additional observations from a re-analysis of the deposited data

How the results depend on the processing

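Of 561 values recomputed for 42 results, 558 were counted as the same. For log2 fold changes this meant the same direction and the same side of the adjusted p threshold, without regard to the fold filter. For shares only the direction decided, and for counts a value within 1.5 times. Xkr8 at -1.91 with a pseudocount of 5, inside the fold filter, was thus counted as the same. So was the share difference of Anxa7 with the longest transcript as length, where the exact permutation p went from 0.1 to 0.2. When the thresholds were 0.05 for the adjusted p-value and 1 for the log2 fold change, 4 annexins passed in place of 1. Of all genes tested, 21.4% had a log2 fold change beyond 1 in either direction, whatever their adjusted p-value. Nothing particular to the annexins is read from this count. Log2 fold changes of Anxa4 from -0.033 to 0.11 and of Anxa7 from -0.0012 to 0.094 with each replicate left out changed sign without T2 replicate 2, both far from the threshold, and the cause was not tested. The count of different annexins was 7 in each alternative, edgeR and DESeq2 included. With the replicate block it was also 7, with 1 past both filters, while the binding partners that were different went from 6 to 5 (Ahnak). Same-numbered samples had deviations that correlated at 0.0575, 0.172 and 0.104 over genes, and 5 of 6 samples correlated best with their own number. Deviations add to 0 within each group, so these matches are not independent and give only a hint of pairing. The labels name no shared batch, so the numbers were not treated as pairs in the main comparison. Whether they mark pairs is not known, and the replicate block gives the counts for the case that they do. Among the shares, the difference for Anxa2 went from -8.81 to -14.0, for Anxa11 from -0.311 to -0.623 and for Anxa8 from 2.15 to 1.35 without length correction. Depth limits the size of the Anxa8 and Atp8b1 changes, which rest on few or no T2 reads. Replicates differed by 8.17 to 25.8 times the sampling noise (chi-square per degree of freedom).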

Other observations

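Ratios of annexins within a library, chosen after their values were seen, need no scaling between libraries. Per kb of exon, the ratio of Anxa1 to Anxa2 was 1.70, 1.72 and 1.98 in T1 cells and 0.558, 0.525 and 0.650 in T2 cells, so Anxa1 exceeded Anxa2 in each T1 library and was below it in each T2 library. The ratio of Anxa3 to Anxa5 was 0.556 ± 0.0262 in T1 and 0.0727 ± 0.0110 in T2 cells (SD, n = 3 each). The ratio of Anxa2 to S100a10 was 0.569, 0.507 and 0.660 in T1 cells and 0.419, 0.479 and 0.411 in T2 cells, a smaller gap than the other 4 ratios. The remaining ratios were those of Anxa1 to Anxa5 and of Anxa1 to S100a11. The 5 ratios did not overlap between T1 and T2 cells (exact permutation test, two-sided p = 0.1 and adjusted p = 0.1 for each, the smallest possible). Apart from Anxa2 to S100a10, each set a gene higher in T1 cells over one lower in them, which fixed the separation beforehand. The p-values therefore test nothing, and the ratios are description only.

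The nearest protein-coding gene on each side of the 10 annexins gave 20 neighbours, of which 10 had enough reads to be compared. Of these 1 passed both filters, Zcchc24 beside Anxa11, at a log2 fold change of -2.92 (adjusted p = 7.45e-08, limma), where 8.37% of all genes passed both. Another 4 were different at an adjusted p-value under 0.01, namely Cers2 beside Anxa9 at -0.90 and Bmp2k beside Anxa3 at 0.84, whose annexins went the same way, and Aak1 beside Anxa4 at -0.60 and Tnip1 beside Anxa6 at 0.65, whose annexins did not pass. The 5 different of 10 are near the 49.5% of all genes, and nothing is read from the neighbours.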
